A study of Mus musculus with 4 samples.

Results

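Leukocytes leave the blood by binding molecules on the vessel wall, and 9 genes of that exchange were followed here through every cell class of the mouse heart. They are Icam1, Icam2, Vcam1, Sele and Selp, whose proteins are displayed mainly by endothelium, and Selplg, Itgam, Itgal and Itga4, whose proteins are carried mainly by leukocytes. The members were chosen by symbol, and each of the 9 was found once among the 32287 features of the deposited matrices. For each gene the unique molecular identifiers (UMIs, each marking 1 captured RNA molecule) were summed over the cells of a class in a library and divided by all UMIs of that class, scaled to 1000000 (CPM, counts per 1000000 UMIs). A UMI counts a molecule once at its 3′ end, so CPM values need no division by transcript length.

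In textbook terms the steps run in order. E-selectin (Sele) and P-selectin (Selp) catch passing leukocytes through the sugar-bearing glycoprotein PSGL-1 (Selplg), so that the cells roll. Integrins then hold them firmly: LFA-1, whose alpha chain is Itgal, binds ICAM-1 and ICAM-2 (Icam1, Icam2), Mac-1, whose alpha chain is Itgam, binds ICAM-1 among other ligands, and VLA-4, whose alpha chain is Itga4, binds VCAM-1 (Vcam1). Resting endothelium carries ICAM-2, while transcription of Icam1, Vcam1 and Sele is known to respond to NF-kappaB after inflammatory cytokines.

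The study had 4 kinds of heart, with 1 library each. They were Tcf21-MerCreMer:flox hearts 3 days after myocardial infarction, Tcf21-MerCreMer hearts 3 days after myocardial infarction, Tcf21-MerCreMer:flox hearts at baseline and Tcf21-MerCreMer hearts at baseline. Every animal had received tamoxifen, which activates MerCreMer, a Cre recombinase expressed here from Tcf21, a gene of cardiac fibroblasts. The series' design text gives deletion of TCF21 in cardiac fibroblasts as the intervention, and the libraries from flox hearts are called deletion-labelled below and the others control. Neither the floxed stretch of the gene nor the number of hearts behind a library is stated. Live nucleated cells were sorted from digested hearts, so cells lost in digestion are not represented, and the labels call the material interstitial cells. With 1 library a group there was no replicate, no test was possible, and every interval below is a 95% interval for counting error alone.

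Tcf21 reached 32.5 CPM in fibroblasts of the deletion-labelled infarct library, against 22.0 CPM in the control infarct library, and 146 CPM in the deletion-labelled baseline library, against 95.9 CPM in the control baseline library. It was thus no lower in either library labelled as a deletion, and a 3′ tag outside the floxed part would not report the deletion, so the labels were not checked by it. After filters 9431 cells of the deletion-labelled infarct library, 9141 of the control infarct library, 10142 of the deletion-labelled baseline library and 8289 of the control baseline library remained, with medians between 4244 and 5649 UMIs a cell and between 55710468 and 129704045 UMIs a library before filters. Of 41605 distinct barcodes, 161 occurred in more than 1 library. Cells were clustered without the 9 genes, and the clusters were named from marker genes into endothelial, mural, fibroblast, mononuclear phagocyte, neutrophil, dendritic, B, and T and NK classes. Classes took very different shares of the libraries: endothelial cells numbered 473 and 170 after infarction, deletion-labelled then control, and 5625 and 4523 at baseline, while neutrophils numbered 3351 and 3370 after infarction and 107 and 33 at baseline. Classes below 50 cells were not compared, which left neutrophils of the control baseline library and baseline dendritic cells out. A summed level covers all cells of a class and does not tell fewer expressing cells from less RNA in each.

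The sequence just before the start of 3 ligand genes is printed here because the ligands' levels after infarction are the main subject, and because Sele and Icam1 but not Selp hold a short motif like that of NF-kappaB. RefSeq promoters of build GRCm38.p6 were at hand for 5 of the 9 genes (Sele, Selp, Icam1, Itgam and Itga4). The 250 bases before each start are shown 5′ to 3′ on the gene's own strand, with matches to GGANNTTCC in capitals. Positions below are counted back from the start of the gene. Sele lies on the plus strand of chromosome 1 and its window is chr1:164047984-164048233. Selp follows it on the same strand, with its window at chr1:164115014-164115263, and the Icam1 window is chr9:21015690-21015939, also on the plus strand.
Sele: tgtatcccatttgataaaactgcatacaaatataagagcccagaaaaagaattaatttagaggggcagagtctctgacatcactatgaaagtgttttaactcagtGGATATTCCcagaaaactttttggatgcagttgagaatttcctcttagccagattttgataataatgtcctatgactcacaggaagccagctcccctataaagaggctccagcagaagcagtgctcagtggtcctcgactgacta
Selp: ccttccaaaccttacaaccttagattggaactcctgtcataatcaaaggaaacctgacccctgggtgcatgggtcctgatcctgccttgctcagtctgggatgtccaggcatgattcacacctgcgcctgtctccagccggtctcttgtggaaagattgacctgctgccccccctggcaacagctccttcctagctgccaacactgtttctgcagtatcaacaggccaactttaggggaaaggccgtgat
Icam1: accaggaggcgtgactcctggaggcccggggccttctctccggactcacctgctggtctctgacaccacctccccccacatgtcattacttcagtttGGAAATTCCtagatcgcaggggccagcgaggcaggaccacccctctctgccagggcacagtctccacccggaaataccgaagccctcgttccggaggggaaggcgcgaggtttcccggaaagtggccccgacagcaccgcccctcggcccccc
Searched on both strands, GGANNTTCC occurred in the Sele window, with its first base at position -145, and in the Icam1 window, with its first base at position -153, where the letters matched on both strands. It occurred in 3.59% of all 32851 promoters of the same length. The Sele window also held TATAAA at position -49 and TGACTCA, a motif of AP-1 factors, at position -73, which occurred in 12.4% and 4.46% of all promoters. No match to these motifs was found in the Selp, Itgam or Itga4 windows. The longer NF-kappaB consensus, found in 3.9% of all promoters, had no match in the 5 windows. The motifs were chosen with the sequences in view, and a match is a description of letters, not of binding.

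The ligands differed in the cell class where they were highest. Icam2 was highest in endothelium in all 4 libraries, by 12.8-fold over the next class in the deletion-labelled infarct library, 12.2-fold in the control infarct library, 5.49-fold in the deletion-labelled baseline library and 7.22-fold in the control baseline library. Vcam1 was highest in fibroblasts in all 4 (in the control infarct library its interval there overlapped that of endothelium), Sele in mural cells in all 4, and Selp in endothelium in 3. In the deletion-labelled baseline library Selp was highest in neutrophils at 6.90 CPM, on 3 UMIs and with an interval that overlapped the next class. Icam1 had no single leading class: neutrophils led in both infarct libraries and phagocytes in both baseline libraries, where their intervals overlapped those of T and NK cells.

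**Figure D1:**
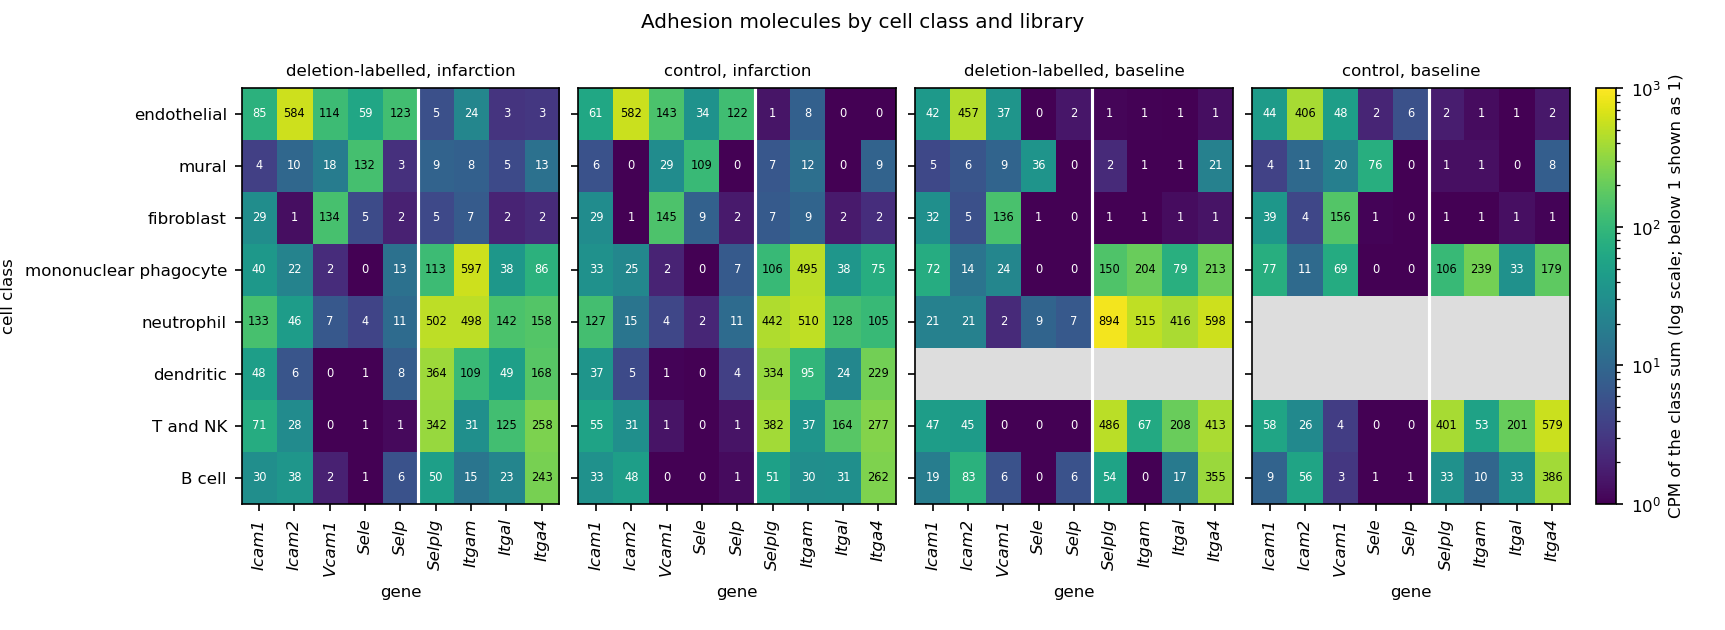
Level of each of the 9 genes (columns, CPM of the class sum on a log colour scale) in each cell class (rows) and library (panels), with grey for classes under 50 cells. Icam2 is brightest in endothelium in every panel and Sele in mural cells in every panel, and Sele and Selp in endothelium are bright only in the infarct panels.

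In endothelium the 2 selectins were nearly absent at baseline and present after infarction. Sele stood at 59.3 CPM in the deletion-labelled infarct library and 33.7 CPM in the control infarct library, against 0.338 CPM in the deletion-labelled baseline library and 2.05 CPM in the control baseline library. The intervals of both infarct libraries lay far above those of both baseline libraries. For infarct over baseline hearts this gave log2 ratios of 7.46 (95% interval 6.59 to 8.48) in the deletion-labelled pair and 4.04 (3.45 to 4.65) in the control pair. When each library was clustered alone the Sele ratios were smaller, at 5.28 and 2.75, with 11.8 CPM in deletion-labelled and 25.4 CPM in control infarct endothelium. Selp stood at 123 CPM and 122 CPM in the deletion-labelled and control infarct libraries, against 1.504 CPM and 5.51 CPM in the deletion-labelled and control baseline libraries. The 2 infarct values agree within counting error, and the log2 ratios were 6.35 (5.92 to 6.80) and 4.47 (4.13 to 4.81) in the deletion-labelled and control pairs.

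The endothelial selectin sums rested on few cells after infarction and on very few at baseline. In infarct endothelium the 10 richest cells held 78.0% and 73.9% of Sele UMIs in the deletion-labelled and control libraries. For Selp they held 68.3% and 75.1%, and 1 control infarct cell held 69 of 249 Selp UMIs. Of the 38 Sele UMIs in 4523 control baseline endothelial cells, 1 cell held 23, and of the 102 Selp UMIs 1 cell held 44. Cells with a Sele UMI numbered 42 of 473 and 24 of 170 in the deletion-labelled and control infarct libraries, against 5 of 5625 and 10 of 4523 in the deletion-labelled and control baseline libraries. After thinning every cell to 2000 UMIs the shares were 4.54% and 4.43% in the deletion-labelled and control infarct libraries, against 0.0360% and 0.117% in the deletion-labelled and control baseline libraries. In mononuclear phagocytes, which should lack the gene, 0.198% and 0.164% of infarct cells had a Sele UMI before thinning at median depths of 16550 and 16496 UMIs, against 8.88% and 14.1% of infarct endothelial cells at median depths of 5317 and 8219 UMIs. The infarct endothelial shares were thus well above that background. The baseline endothelial shares, 0.0889% and 0.221% before thinning, were not shown to be above it, since 0 of 417 and 0 of 568 baseline phagocytes allow a share of up to 0.881% and 0.647% by exact binomial intervals.

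Vcam1 and Icam1, the immunoglobulin-family ligands of VLA-4 and of LFA-1 and Mac-1, were already present at baseline. Vcam1 had 114 CPM and 143 CPM in deletion-labelled and control infarct endothelium, against 37.0 CPM and 47.7 CPM in deletion-labelled and control baseline endothelium. Its log2 ratios were close in both pairs, at 1.63 (1.47 to 1.78) in deletion-labelled hearts and 1.58 (1.39 to 1.77) in control hearts. Icam1 had 85.1 CPM and 61.1 CPM in deletion-labelled and control infarct endothelium, against 42.1 CPM and 44.2 CPM in deletion-labelled and control baseline endothelium. Its ratio passed 1.5-fold in the deletion-labelled pair, at 1.02 (0.84 to 1.19), and not in the control pair, at 0.47 (0.18 to 0.74). The control ratio of Icam1 did pass it, at 0.82 to 0.86, with at least 1000 UMIs a cell, at Leiden resolution 0.5 or when clustered with the members, and the difference between the pairs was not tested. In deletion-labelled and control infarct endothelium the 10 richest cells held 32.4% and 57.9% of Vcam1 UMIs. For Icam1 they held 29.4% and 55.2%. In the control infarct library 1 cell held 46 of 292 Vcam1 UMIs, and 1 cell held 22 of 125 Icam1 UMIs. Icam2, the constitutive LFA-1 ligand, had 584 CPM and 582 CPM after infarction, against 457 CPM and 406 CPM at baseline, which stayed within 1.5-fold at log2 ratios of 0.36 and 0.52.

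A gene was called higher or lower where its ratio passed 1.5-fold and at least 1 of the sums held 10 UMIs. Of the 9 genes, 8 were called higher and 0 lower in the deletion-labelled infarct endothelium, where 20.4% of 14358 such genes were called higher and 21.8% lower. The median log2 ratio of the 9 was 1.66, beside -0.03 over all genes. In control hearts 4 were higher (Vcam1, Sele, Selp and Itgam) and 2 lower (Itgal and Itga4, each on 1 UMI after infarction), where 25.4% of 13578 genes were higher and 31.2% lower. The medians were 0.52 for the 9 genes and -0.08 for all genes there. The leukocyte partners in these calls had low endothelial levels: Itgam, for example, had 23.5 CPM and 8.31 CPM in deletion-labelled and control infarct endothelium, against 1.04 CPM and 1.24 CPM in deletion-labelled and control baseline endothelium. The summed level of 7 neutrophil markers in endothelium moved alongside it, with 370 CPM and 117 CPM after infarction, against 33.3 CPM and 15.3 CPM at baseline in deletion-labelled and control hearts, with every marker detected in each library. A sum of 9 phagocyte markers was 214 CPM and 148 CPM after infarction, against 108 CPM and 161 CPM at baseline. Their part in the endothelial values of Itgam, Selplg, Itgal and Itga4 was not tested.

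**Figure D2:**
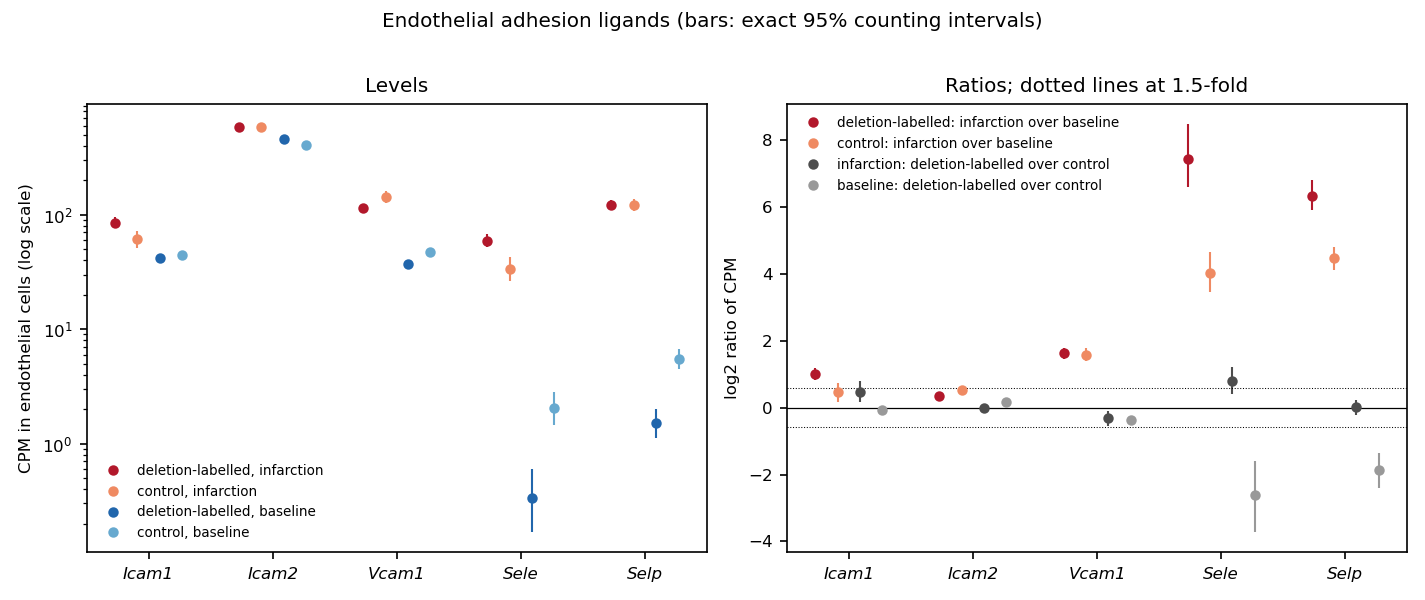
Endothelial levels of the 5 ligands in each library (CPM, log axis, with 95% counting intervals) and their log2 ratios of infarct over baseline hearts and of deletion-labelled over control hearts. For infarct over baseline hearts Sele and Selp sit furthest from 0 with log2 ratios between 4.04 and 7.46, Vcam1 near 1.6 in both genotypes, and Icam2 below the 1.5-fold line in both.

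Infarct and baseline endothelium were made of different clusters, which bears on these ratios. Clusters split from cluster 16 held 190 of the 473 endothelial cells in the deletion-labelled infarct library and 135 of the 170 in the control infarct library, but 28 and 18 in the deletion-labelled and control baseline libraries, where clusters 1, 3 and 4 held most cells. Clusters 1 and 3 had at least 50 cells in both deletion-labelled libraries, so the infarct contrast could be read inside them. In cluster 1, Vcam1 had 59.3 CPM after infarction and 27.1 CPM at baseline, a log2 ratio of 1.13 (0.47 to 1.72). Icam1 had 89.0 CPM after infarction and 51.5 CPM at baseline in the same cluster, a log2 ratio of 0.79 (0.26 to 1.27). In cluster 3, Icam1 had 67.2 CPM after infarction and 24.7 CPM at baseline, a log2 ratio of 1.44 (0.89 to 1.95). Vcam1 in cluster 3 had a ratio of 0.73 with an interval that includes 0 (-0.21 to 1.55). Both genes were thus past 1.5-fold within clusters found at baseline too. Selp had 0 UMIs in the infarct cells of both clusters, and Sele 3 and 2 UMIs.

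The infarct selectins were concentrated in 1 venous-like cluster. Cluster 16.3 was led by Ackr1, Vwf, Plvap and Slco2a1, of which Ackr1 and Vwf were among the fixed venous markers and Plvap among the fixed endocardial ones. The cluster held 38 of 473 and 21 of 170 endothelial cells of the deletion-labelled and control infarct libraries. It held 185 of 232 Sele UMIs in the deletion-labelled library and 39 of 69 in the control library, with 236 of 480 and 192 of 249 Selp UMIs. Sele reached 420 CPM and 174 CPM there, Selp 536 CPM and 857 CPM, Vcam1 348 CPM and 438 CPM, and Icam1 227 CPM and 134 CPM in the deletion-labelled and control infarct libraries. All 4 genes were thus high in the same cells' cluster in both libraries. Icam2 did not share that pattern: it had 599.8 CPM and 406 CPM in cluster 16.3, against 584 CPM and 582 CPM in the class as a whole.

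Other endothelial clusters had other combinations. The cluster split from 16 that was led by Apln, Gal and Pgf had 0 UMIs of either selectin in 46 deletion-labelled and 51 control infarct cells, and its Vcam1 was 4.63 CPM and 9.83 CPM. Cluster 26, led by Npr3, Nrg1 and Vwf, had Sele at 10.4 CPM and 7.68 CPM in the infarct libraries and much more Selp. It reached 359 CPM and 292 CPM in 27 and 10 infarct cells, against 49.9 CPM and 5.08 CPM in 15 and 24 baseline cells of the deletion-labelled and control libraries. Its Vcam1 was high in all 4 libraries, with 397 CPM and 629 CPM after infarction and 577 CPM and 508 CPM at baseline. Cluster 15, led by Vwf and Lhx6, was the main baseline cluster with Vcam1, at 198 CPM and 221 CPM in 392 and 423 cells of the deletion-labelled and control baseline libraries, and with Selp, at 13.9 CPM and 43.7 CPM. In the deletion-labelled infarct library 32 cells of cluster 15 had Vcam1 at 433 CPM, Selp at 89.0 CPM and Sele at 71.2 CPM.

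**Figure D3:**
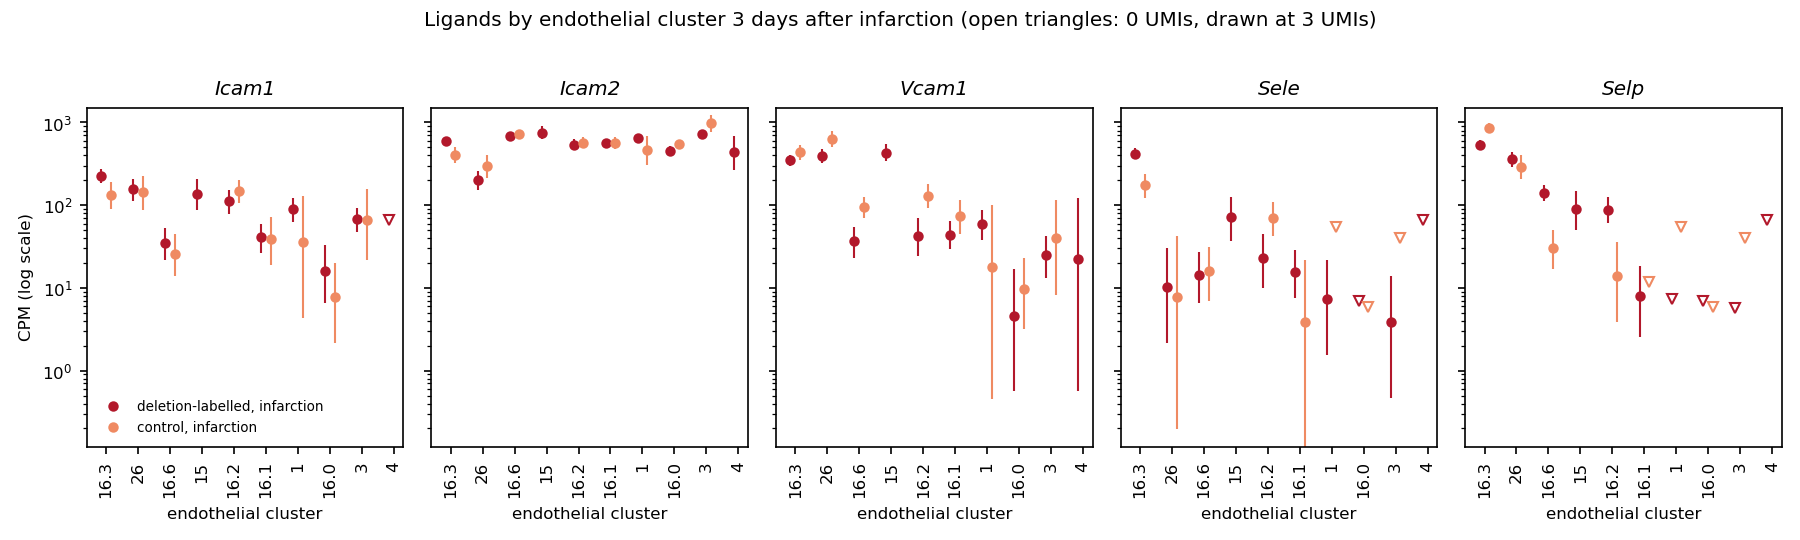
Levels of the 5 ligands (CPM, log axis) in each endothelial cluster with at least 10 cells, in the deletion-labelled and control infarct libraries, with open triangles for sums of 0 drawn at 3 UMIs. Cluster 16.3 is highest for Sele and Selp in both libraries, the clusters drawn as triangles have 0 UMIs, and Icam2 lies between 200.4 and 986 CPM in every cluster shown.

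The ligands were also found in the same cells. Of 42 endothelial cells with a Sele UMI in the deletion-labelled infarct library, 27 also had a Selp UMI (64.3%, exact interval 48.0 to 78.4), against 6.03% of cells without Sele. In the control infarct library 16 of 24 did (66.7%, 44.7 to 84.4), against 10.3% of cells without Sele. Vcam1 was detected in 48.2% of deletion-labelled cells with Icam1 and 14.4% of those without, and in 70.8% of control cells with Icam1 and 13.9% of those without. Cells with Sele were deeper, with medians of 12335 and 12040 UMIs in the deletion-labelled and control libraries, against 4857 and 7097 UMIs in cells without it. The part of depth in these shares was not tested.

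Sele had its highest class level in mural cells, the pericytes and smooth muscle cells around vessels, rather than in endothelium. Mural Sele was 132 CPM in the deletion-labelled infarct library, 109 CPM in the control infarct library, 35.7 CPM in the deletion-labelled baseline library and 76.2 CPM in the control baseline library. Its UMIs came from 64 of 175, 42 of 84, 60 of 553 and 34 of 193 mural cells in that order, and the 10 richest cells held between 46.8% and 60.2% of them. All mural Sele UMIs lay in cluster 14, which was led by the pericyte genes Kcnj8, Abcc9, Rgs5, Vtn and Higd1b. Cluster 23, led by the smooth muscle gene Myh11 with Lmod1 and Nrip2, had 0 Sele UMIs, in 23 and 114 cells of the deletion-labelled infarct and baseline libraries and 5 cells in each control library, which are too few to limit the level there.

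Endothelial marker RNA was also summed in these mural cells, and its part in their Sele values was not tested. A sum of 8 endothelial markers was 244 CPM and 152 CPM in mural cells of the deletion-labelled and control infarct libraries, and 304 CPM and 399 CPM in those of the deletion-labelled and control baseline libraries, against 5857 CPM or more in endothelium of every library. In control infarct mural cells 3 of the 8 markers (Pecam1, Cdh5 and Cldn5) were at 0, the other 5 made up the 152 CPM, and Sele had 133 UMIs. Within cluster 14, cells with a Sele UMI had an endothelial sum of 356 CPM, against 167 CPM in cells without, in the deletion-labelled infarct library, and 142 CPM against 176 CPM in the control infarct library. At baseline the sums were 272 CPM with and 356 CPM without Sele in the deletion-labelled library, and 462 CPM with and 353 CPM without in the control library. Selp, by contrast, had at most 5 UMIs in mural cells of any library.

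Within cluster 14, Sele was 152 CPM and 113 CPM in the deletion-labelled and control infarct libraries, against 52.6 CPM and 78.9 CPM in the deletion-labelled and control baseline libraries. For infarct over baseline hearts the log2 ratio was 1.53 (1.21 to 1.87) in the deletion-labelled pair, past 1.5-fold, and 0.52 (0.07 to 0.996) in the control pair, within it. Over the whole mural class 5 of 7 genes with enough UMIs were called higher in the deletion-labelled pair (Icam2, Vcam1, Sele, Selplg and Itgam) and Itga4 lower, where 17.1% of all genes were higher and 31% lower. The median log2 ratio was 0.98 for the 7 and -0.20 for all genes. The Itga4 call did not hold within cluster 14, where it was higher at 1.46 (0.07 to 2.99) on 15 UMIs after infarction and 7 at baseline. Its class level included cluster 23, with 39.97 CPM in 23 infarct cells and 57.05 CPM in 114 baseline cells. Icam2 turned to -2.32 when doublets were kept. In control hearts 1 of 4 was higher (Itgam, on 15 UMIs and 1 UMI), where 23.3% of all genes were higher and 38.1% lower.

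**Figure D4:**
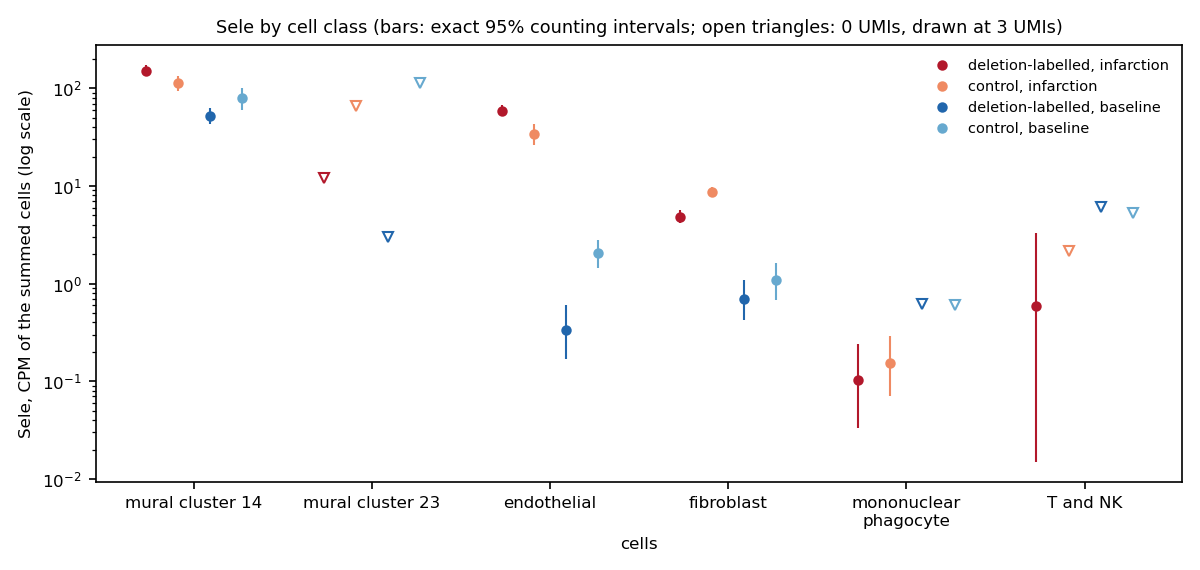
Sele (CPM, log axis, with 95% counting intervals) in mural clusters 14 and 23 and in the endothelial, fibroblast, mononuclear phagocyte, and T and NK classes of each library, with open triangles for sums of 0 drawn at 3 UMIs. Cluster 14 lies between 52.6 and 152 CPM in every library, above endothelium in each, and cluster 23 has 0 UMIs.

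Vcam1 had its highest class level in fibroblasts. It stood at 134 CPM and 145 CPM in fibroblasts of the deletion-labelled and control infarct libraries, against 136 CPM and 156 CPM in those of the deletion-labelled and control baseline libraries. The log2 ratios of infarct over baseline hearts were -0.02 (-0.08 to 0.04) and -0.10 (-0.17 to -0.04), so the level stayed within 1.5-fold. This was so although the cells changed cluster: cluster 7, led by Cthrc1, Tnc and Timp1, held 983 of 1472 and 963 of 981 infarct fibroblasts, while clusters 2 and 10 held most baseline ones. Among baseline clusters the level differed, with 166 CPM and 192 CPM in cluster 2 and 65.5 CPM and 83.0 CPM in cluster 10 of the deletion-labelled and control libraries. In deletion-labelled hearts Vcam1 in cluster 10 was 89.0 CPM after infarction and 65.5 CPM at baseline, a log2 ratio of 0.44 (0.22 to 0.66), and in cluster 2 it was 159 CPM and 166 CPM, a ratio of -0.06 (-0.20 to 0.08).

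Other members were low in fibroblasts, and several were called higher after infarction. Sele had 4.85 CPM and 8.65 CPM in deletion-labelled and control infarct fibroblasts, against 0.700 CPM and 1.08 CPM in deletion-labelled and control baseline fibroblasts, with log2 ratios of 2.79 (2.11 to 3.56) and 3.00 (2.37 to 3.70). A sum of 9 mural markers in the same cells was 1343 CPM and 1852 CPM after infarction, against 275 CPM and 234 CPM at baseline, and their part in the Sele values was not tested. In deletion-labelled fibroblasts 6 of 9 genes were called higher (Sele, Selp and all 4 partners) and Icam2 lower, where 21.4% of all genes were higher and 32.5% lower. In control fibroblasts 5 of 9 were higher (the same list without Itgal) and Icam2 lower, where 26.3% of all genes were higher and 39.7% lower. Levels of the 4 partners stayed at or below 9.15 CPM in every library.

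Icam1 was also a leukocyte gene. In neutrophils it stood at 133 CPM and 127 CPM in the deletion-labelled and control infarct libraries, against 20.7 CPM in the deletion-labelled baseline library, on 9 UMIs. The log2 ratio in deletion-labelled hearts was 2.69 (1.76 to 3.82). Cluster 0, led by Siglecf, Acod1 and Cxcr2, had Icam1 at 167 CPM and 139 CPM in 2430 and 2907 infarct cells of the deletion-labelled and control libraries and held 1 cell in each baseline library. Cluster 11, led by the granule genes Ngp, Camp and Ltf and present in both conditions, had 30.8 CPM after infarction and 21.1 CPM at baseline in deletion-labelled hearts, a log2 ratio of 0.55 (-0.48 to 1.75). Inside the shared cluster the difference was therefore not detectable at this depth.

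In mononuclear phagocytes Icam1 went the other way, with 40.03 CPM and 32.9 CPM in the deletion-labelled and control infarct libraries, against 71.7 CPM and 77.0 CPM in the deletion-labelled and control baseline libraries. The log2 ratios were -0.84 (-1.01 to -0.67) and -1.23 (-1.39 to -1.07). Phagocyte Vcam1 was lower still, with 2.39 CPM and 2.01 CPM after infarction, against 23.8 CPM and 69.5 CPM at baseline, and log2 ratios of -3.32 (-3.70 to -2.93) and -5.11 (-5.42 to -4.80) in deletion-labelled and control hearts. Infarct phagocytes lay mainly in clusters 5 (Gpnmb, Trem2 and Spp1) and 6 (Ly6c2, Chil3 and Ccr2) and baseline ones in cluster 13 (Lyve1, Timd4 and Cd163), so no cluster held 50 cells in both conditions. A sum of 5 stress or dissociation genes was 2215 CPM and 1755 CPM in infarct phagocytes, against 9742 CPM and 11361 CPM in baseline ones of the deletion-labelled and control libraries. The endothelial marker sum was 24.3 CPM and 16.3 CPM after infarction, against 285 CPM and 352 CPM at baseline, and the part of either in these values was not tested. In B cells Icam1 was called higher in both pairs, at log2 ratios of 0.70 (-0.20 to 1.71) in deletion-labelled hearts, an interval that includes 0, and 1.87 (0.95 to 2.90) in control hearts. It had 30.3 CPM and 33.2 CPM there after infarction, against 18.6 CPM and 9.11 CPM at baseline.

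Among the leukocyte partners, Itgam, the alpha chain of Mac-1, was highest in phagocytes and neutrophils. Phagocyte Itgam had 597 CPM and 495 CPM in the deletion-labelled and control infarct libraries, against 204 CPM and 239 CPM in the deletion-labelled and control baseline libraries. The log2 ratios were 1.55 (1.46 to 1.64) and 1.05 (0.97 to 1.14). Neutrophil Itgam hardly differed, with 498 CPM and 510.4 CPM in the deletion-labelled and control infarct libraries and 515 CPM in the deletion-labelled baseline library, a log2 ratio of -0.05 (-0.24 to 0.15). Itga4, the alpha chain of VLA-4, was lower after infarction in each of these leukocytes. Phagocyte Itga4 had 85.6 CPM and 74.7 CPM after infarction, against 213 CPM and 179 CPM at baseline, with log2 ratios of -1.32 (-1.42 to -1.22) in deletion-labelled and -1.26 (-1.36 to -1.15) in control hearts.

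Itga4 in neutrophils had 158 CPM in the deletion-labelled infarct library and 598 CPM in the deletion-labelled baseline library, a log2 ratio of -1.92 (-2.11 to -1.72). Inside neutrophil cluster 11 it had 241 CPM after infarction and 589.7 CPM at baseline, and the ratio was -1.29 (-1.52 to -1.06), so the difference was present within 1 cluster. T and NK cells had Itga4 at 258 CPM and 277 CPM after infarction, against 413 CPM and 579 CPM at baseline in deletion-labelled and control hearts, with log2 ratios of -0.68 (-0.92 to -0.43) and -1.06 (-1.28 to -0.85). The make-up of this class differed as well. Cells named NK within it were 65 of 350 and 42 of 320 after infarction, against 31 of 75 and 46 of 112 at baseline. The part of this difference in the ratios was not tested. B cells had 243 CPM and 262 CPM after infarction, against 355 CPM and 386 CPM at baseline, which stayed within 1.5-fold at -0.55 and -0.56.

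Itgal and Selplg differed less evenly. Phagocyte Itgal, the alpha chain of LFA-1, had 38.3 CPM and 38.1 CPM in the deletion-labelled and control infarct libraries, against 79.1 CPM and 32.6 CPM in the deletion-labelled and control baseline libraries. It was called lower in the deletion-labelled pair, at -1.05 (-1.21 to -0.88), and stayed within 1.5-fold in the control pair, at 0.22 (-0.01 to 0.46). The deletion-labelled baseline level came mostly from 41 cells of cluster 24, which held 339 of 385 Itgal UMIs, while 350 cells of cluster 13 stood at 2.91 CPM. Neutrophil Itgal had 142 CPM in the deletion-labelled infarct library and 416 CPM in the deletion-labelled baseline library, a log2 ratio of -1.55 (-1.78 to -1.32). Inside cluster 11 it was 297 CPM after infarction and 409.5 CPM at baseline, within 1.5-fold at -0.46 (-0.71 to -0.21). Selplg, the selectin ligand PSGL-1, followed the same course in neutrophils, with 502 CPM after infarction and 894 CPM at baseline over the class but 934 CPM and 894 CPM inside cluster 11, a ratio of 0.06 (-0.10 to 0.23). In phagocytes Selplg stayed within 1.5-fold, with 113 CPM and 106 CPM after infarction and 149.5 CPM and 105.5 CPM at baseline.

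By count, 3 of 8 phagocyte members with enough UMIs were called higher and 4 lower in deletion-labelled hearts, where 17.9% of all genes were higher and 34.6% lower. In control hearts 3 were higher and 3 lower, where 18.9% of all genes were higher and 41.3% lower. The 3 higher ones were Icam2, Selp and Itgam in both pairs, of which Icam2 turned lower when doublets were kept, at -0.67 and -0.28 in deletion-labelled and control hearts. In deletion-labelled neutrophils 4 of 9 were higher (Icam1, Icam2, Vcam1 and Selp) and 4 lower (Sele, Selplg, Itgal and Itga4), where 33% of all genes were higher and 13.5% lower. The neutrophil calls of Icam1, Icam2, Vcam1, Sele and Selp rest on at most 9 baseline UMIs. Cluster 25, of 109 infarct cells, held 307 of 388 Icam2 and 37 of 57 Vcam1 UMIs, and without it the Icam2 ratio turned to -0.96 and that of Vcam1 was 0.19, within 1.5-fold. In T and NK cells 1 of 6 was higher (Icam1) and 4 lower in deletion-labelled hearts (Icam2, Itgam, Itgal and Itga4), where 15.2% of all genes were higher and 19.4% lower, and Itga4 alone was called in control hearts, where 13.7% were higher and 25.9% lower. In B cells 2 of 6 were higher (Icam1 and Itgam) and Icam2 lower in deletion-labelled hearts, where 14.4% of all genes were higher and 19% lower, and 3 of 6 were higher in control hearts (Icam1, Selplg and Itgam), where 10.3% were higher and 29.7% lower.

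Single phagocyte clusters carried much of the partners' variation. Cluster 18, led by Alox15, Marco, Cxcl13, Saa3 and Cd5l and found after infarction (190 and 257 cells, against 4 and 1 at baseline), had Itgam at 1759.9 CPM and 1303 CPM in the deletion-labelled and control infarct libraries. It also held 578 of 638 and 352 of 411 phagocyte Selp UMIs and had Icam2 at 163 CPM and 195 CPM. In every other phagocyte cluster of the infarct libraries Icam2 was at most 22.9 CPM and Selp at most 8.79 CPM. Cluster 24, led by Cd300e, Ear2 and Treml4, which include fixed markers of nonclassical monocytes, was the Itgal and Itga4 cluster. Its Itgal was 599 CPM and 744 CPM in 51 and 32 infarct cells, against 1193 CPM and 1343.5 CPM in 41 and 17 baseline cells of the deletion-labelled and control libraries. Its Itga4 was 665 CPM and 653 CPM after infarction, against 1464 CPM and 1334 CPM at baseline. Classical-monocyte-like cluster 6 had Itgal at 82.7 CPM and 85.7 CPM, against 8.33 CPM and 10.2 CPM in cluster 5, while Itgam was 650.2 CPM and 571 CPM in cluster 6 and 432 CPM and 376 CPM in cluster 5.

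**Figure D5:**
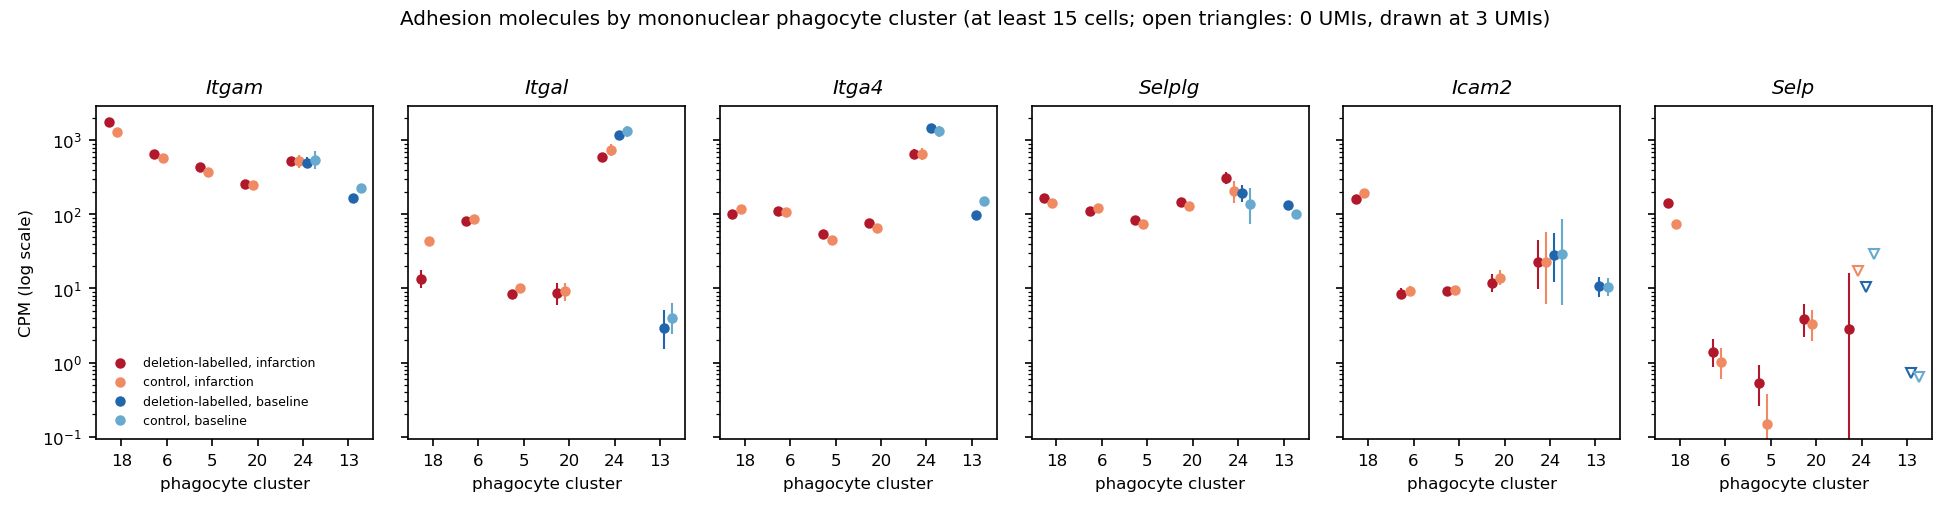
Levels of Itgam, Itgal, Itga4, Selplg, Icam2 and Selp (CPM, log axis) in 6 mononuclear phagocyte clusters, in each library with at least 15 cells of the cluster. Cluster 18 is highest for Itgam, Icam2 and Selp, and cluster 24 for Itgal and Itga4 in every library shown.

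Set side by side, the partners overlapped in the leukocytes that carried them. T and NK cells were among the higher classes for Selplg, Itgal and Itga4, and neutrophils for Selplg, Itgal and Itgam. Selectin pairs after infarction were endothelial Selp at 123 CPM and 122 CPM and Sele at 59.3 CPM and 33.7 CPM, with Selplg at 502 CPM and 442 CPM on neutrophils, 364 CPM and 334 CPM on dendritic cells and 342 CPM and 382 CPM on T and NK cells of the deletion-labelled and control libraries. For Icam1 and Icam2, Itgal was 142 CPM and 128 CPM on neutrophils and 125 CPM and 164 CPM on T and NK cells, and Itgam was highest on phagocytes and neutrophils. For Vcam1, Itga4 was 258 CPM and 277 CPM on T and NK cells, 243 CPM and 262 CPM on B cells and 168 CPM and 229 CPM on dendritic cells. Endothelial Vcam1 was higher after infarction while its partner Itga4 was lower in phagocytes, neutrophils, and T and NK cells, each by the 1.5-fold rule. RNA levels say nothing of integrin activation or of the sugars on PSGL-1, on which binding depends.

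Between genotypes at baseline, endothelial Icam1, Icam2 and Vcam1 stayed within 1.5-fold, with log2 ratios of deletion-labelled over control of -0.07 (-0.20 to 0.06), 0.17 (0.13 to 0.21) and -0.37 (-0.49 to -0.24). Vcam1 was past it, at -1.57, when each library was clustered alone. Sele, Selp and Selplg were called lower, 3 of 9, where 8.81% of all genes were lower and 9.83% higher. Their ratios were -2.60 (-3.72 to -1.61), -1.87 (-2.40 to -1.37) and -0.65 (-1.37 to 0.09), of which the last interval includes 0 and the others rest on the few cells described above. Selp in cluster 15, present in both libraries, was 13.9 CPM in deletion-labelled and 43.7 CPM in control hearts, a ratio of -1.65 (-2.24 to -1.08). These are largely the same UMIs as those of the class. Cluster 15 held 36 of the 49 deletion-labelled and 98 of the 102 control Selp UMIs, the control cell with 44 among them. Baseline phagocyte Vcam1 was lower too, at 23.8 CPM in deletion-labelled and 69.5 CPM in control hearts (-1.54, -1.86 to -1.24), and within cluster 13 at 21.4 CPM and 72.3 CPM (-1.76, -2.11 to -1.42). The deletion-labelled class sum was 116 UMIs in 44 of 417 cells, with 26 in 1 cell. The control class sum was 349 UMIs in 98 of 568 cells, with 20 in the richest. In the deletion-labelled and control libraries the 10 richest cells held 62.1% and 37.0% of them. Phagocyte Itgal was higher, at 1.28 (1.01 to 1.55), but within cluster 13 it was 2.91 CPM and 4.03 CPM, a ratio of -0.47 (-1.64 to 0.65). These were the only phagocyte calls, 1 of 7 in each direction, where 9.31% of all genes were higher and 9.79% lower. Mural Sele was lower at -1.09 (-1.56 to -0.61) over the class and stayed within 1.5-fold in cluster 14, at -0.58 (-1.06 to -0.10). In the mural class Icam2, Vcam1 and Sele were called lower and Itga4 higher of 5, where 15.3% of all genes were lower and 15.9% higher. None of these 4 calls passed the 1.5-fold rule within cluster 14, but Sele, at 1.4999-fold, and Vcam1, at 1.48-fold and -0.57, fell just short in the same direction. Icam2 was at -0.41 there, and Itga4 at -1.04 on 7 and 5 UMIs, too few to call. Cluster 23 held 114 of 553 deletion-labelled and 5 of 193 control mural cells.

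Between genotypes after infarction, endothelial Selp, Icam2 and Vcam1 stayed within 1.5-fold, with log2 ratios of 0.01 (-0.21 to 0.24), 0.00 (-0.10 to 0.11) and -0.32 (-0.54 to -0.10), as did Icam1 at 0.48 (0.18 to 0.79). By the mean of CPM per cell Selp was past it, at -0.93, and over the alternatives Icam1 ranged from 0.24 to 0.63, past it in 3 of 10. Outside the clusters split from cluster 16, Vcam1 and Selp were lower past 1.5-fold, on 283 deletion-labelled and 35 control cells. Vcam1 had 158 CPM and 314 CPM there, at -0.99 (-1.35 to -0.61). Selp had 83.3 CPM and 139 CPM, at -0.74 (-1.27 to -0.17). The 35 control cells are below the limit set for comparing classes. Among the split clusters Vcam1 was at -0.39 and Selp at 0.29, and Icam1 and Icam2 stayed within 1.5-fold in either part. Sele was called higher in the deletion-labelled library at 0.81 (0.42 to 1.22), and at 1.15 (0.75 to 1.57) among the clusters split from cluster 16. However, 1 deletion-labelled cell held 47 of the 232 Sele UMIs. Cells with a Sele UMI were 42 of 473 in the deletion-labelled and 24 of 170 in the control library. When each library was clustered alone the Sele ratio turned to -1.10. The deletion-labelled library then had 36 Sele UMIs in 328 cells named endothelial, in place of 232 UMIs in 473 cells. Selplg, Itgam, Itgal and Itga4 were called higher as well, making 5 of 9, where 15.4% of all genes were higher and 5.25% lower. Those 4 had at most 23.5 CPM, and the neutrophil markers that were higher beside them are given above.

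Outside endothelium, phagocyte Selp after infarction was higher in the deletion-labelled library, at 13.04 CPM against 7.01 CPM in the control library, a ratio of 0.90 (0.71 to 1.08), and at 0.94 (0.75 to 1.14) within cluster 18. It was the only phagocyte call, 1 of 8, where 8.53% of all genes were higher and 4.06% lower. Cluster 18 itself also had less Itgal, at 13.5 CPM in the deletion-labelled and 43.2 CPM in the control library, a ratio of -1.68 (-2.14 to -1.24). Neutrophil Itga4 was higher, at 158 CPM in the deletion-labelled and 105 CPM in the control library, a ratio of 0.59 (0.46 to 0.72), and at 0.62 (0.46 to 0.77) within cluster 0. Icam2, Vcam1 and Sele were also called higher in neutrophils, making 4 of 9 where 15.5% of all genes were higher and 5.78% lower. However, 307 of 388 Icam2, 37 of 57 Vcam1 and 25 of 35 Sele UMIs lay in 109 cells of cluster 25. Its leading genes Tmem252, Nts, Ctla2a and Grrp1 also led the infarct endothelial cluster 16.1. Others of its leading genes, Bcl2l15, Acod1 and Cxcr2, also led neutrophil cluster 0. Without that cluster the Vcam1 and Sele ratios were both -0.69, while Icam2 was still past 1.5-fold, at 0.60.

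Fibroblasts, the cells in which the deletion was directed, had no ligand past 1.5-fold at baseline except Sele, on 19 and 22 UMIs (1 of 8 lower, where 7.19% of all genes were lower and 9.25% higher). Of the 22 control Sele UMIs, 9 came from 1 cell of fibroblast cluster 10. In fibroblast cluster 2 Sele was 0.904 CPM in the deletion-labelled and 0.991 CPM in the control baseline library, on 17 and 13 UMIs. After infarction Sele and Selplg were lower and Icam2 higher of 9, where 6.03% of all genes were lower and 13.1% higher. Fibroblast Sele was 4.85 CPM in the deletion-labelled and 8.65 CPM in the control infarct library, a ratio of -0.83 (-1.12 to -0.55), and -0.72 (-1.01 to -0.43) within cluster 7. Selplg stayed within 1.5-fold in cluster 7, at -0.46 (-0.76 to -0.15), and Icam2 turned to -0.32 by the mean of CPM per cell. Fibroblast Vcam1 stayed within 1.5-fold, at -0.19 (-0.26 to -0.12) at baseline and -0.11 (-0.16 to -0.05) after infarction. Mural cells after infarction had Icam2 called higher and Vcam1 lower of 6, where 17.4% of all genes were higher and 6.41% lower, on at most 35 UMIs a library. The Icam2 ratio is a bound, since the control library had 0 UMIs, and Vcam1 was within 1.5-fold in cluster 14, at -0.53, and turned to 0.0849 when doublets were kept. Dendritic Selp and Itgal were called higher of 7, where 13.2% of all genes were higher and 7.32% lower, and Itgal had 49.1 CPM in the deletion-labelled and 24.4 CPM in the control library. In T and NK cells 0 of 6 were called after infarction, where 10.9% of all genes were higher and 8.15% lower, and 1 of 6 at baseline (Icam2 higher), where 12.1% were higher and 19.5% lower. In B cells Itgam was lower of 6 after infarction, where 8.76% of all genes were higher and 8.95% lower, and at baseline Icam1 and Selplg were higher and Itgam and Itgal lower, where 7.87% were higher and 19.8% lower.

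Other genes of the pathway came from 7 lists of 53 genes, read against the background shares of the same comparisons given above and against all-gene medians of -0.03 and -0.08 in endothelium and -0.18 and -0.34 in phagocytes of deletion-labelled and control hearts. Among beta and other alpha integrin chains of leukocytes, 5 of 7 with enough UMIs were called higher and 1 lower in deletion-labelled infarct phagocytes, and 6 higher and 1 lower in control ones, with list medians of 0.77 and 1.26. Itgb2, the beta chain of LFA-1 and Mac-1, which was singled out after its values were seen, had log2 ratios of 0.81 (0.72 to 0.90) and 1.26 (1.16 to 1.36), and its levels were 371 CPM and 380.4 CPM after infarction, against 212 CPM and 159 CPM at baseline. Itgb7, the other beta chain that pairs with Itga4, had ratios of 1.67 and 2.80, and Itga5, a fibronectin receptor chain, 1.68 and 1.35. Itgb1, the beta chain of VLA-4, was at -0.79 in the control pair, past 1.5-fold, and at -0.45 in the deletion-labelled pair, within it. In endothelium Itga5 had 108 CPM and 124 CPM after infarction, against 44.6 CPM and 49.8 CPM at baseline, with ratios of 1.27 (1.11 to 1.43) and 1.32 (1.11 to 1.52) in deletion-labelled and control hearts. The list had 3 higher and 0 lower of 5 in deletion-labelled endothelium, and 2 higher and 1 lower (Itga6, a laminin receptor chain, at -1.08) in control endothelium, with list medians of 1.27 and 0.48.

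Of the junction molecules, a pair was lower in endothelium. Jam2 had 273 CPM and 196 CPM after infarction, against 673 CPM and 703 CPM at baseline, with log2 ratios of -1.30 (-1.39 to -1.21) and -1.85 (-1.99 to -1.70) in deletion-labelled and control hearts. Jam3 had ratios of -0.93 and -1.37, while F11r (JAM-A) and Esam stayed within 1.5-fold. The list had 1 higher and 2 lower of 6 in the deletion-labelled pair and 0 higher and 2 lower of 5 in the control pair, with medians of -0.04 and -0.50. In phagocytes 6 of 6 and 5 of 6 junction genes were lower in deletion-labelled and control hearts, beside the lower endothelial marker sum given above.

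Genes of the NF-kappaB feedback list were mostly within 1.5-fold in endothelium. In that list 1 was higher and 1 lower of 8 in deletion-labelled hearts, and 2 higher and 1 lower in control hearts, with medians of -0.26 and -0.02. Nfkbia, which encodes the inhibitor IkappaB-alpha, had 385 CPM and 394 CPM after infarction, against 462 CPM and 424 CPM at baseline, with ratios of -0.26 and -0.11. In phagocytes 4 and 5 of 8 were lower and 0 higher, with Nfkbiz at -2.05 and -2.73 and Tnfaip3 at -1.12 and -2.02 in deletion-labelled and control hearts, again beside the stress gene sums given above. Among cytokine receptors of endothelial activation, Il6st, the shared receptor chain gp130, had 241 CPM and 188 CPM in infarct endothelium, against 111 CPM and 137 CPM in baseline endothelium, with ratios of 1.12 and 0.45. That list had 2 higher and 0 lower of 6 in deletion-labelled endothelium and 0 higher and 1 lower in control endothelium, with medians of 0.41 and 0.29.

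Selectin partners and the enzymes that build their sugars were mixed. Podxl, a sialomucin of endothelium, had 405 CPM and 235 CPM after infarction, against 589 CPM and 697 CPM at baseline, with log2 ratios of -0.54 and -1.57. Cd34, a related sialomucin, stayed within 1.5-fold at 0.26 and 0.25. The list of selectin ligands had 2 higher and 0 lower of 6 in deletion-labelled endothelium and 0 higher and 1 lower of 5 in control endothelium, with medians of 0.26 and 0.24. Among enzymes, Tpst1, a tyrosine sulfotransferase, was lower at -1.28 and -1.42, and the list had 2 higher and 3 lower of 8 in the deletion-labelled pair and 3 higher and 2 lower in the control pair. In phagocytes the sialyltransferase gene St3gal6 had 7.70 CPM and 3.94 CPM after infarction, against 219.9 CPM and 174 CPM at baseline, with ratios of -4.84 (-5.01 to -4.66) and -5.46 (-5.68 to -5.25). Cd44, a selectin ligand and hyaluronan receptor, had ratios of 1.56 and 1.97 there. Phagocyte enzymes counted 1 higher and 4 lower of 9 in deletion-labelled hearts and 1 higher and 5 lower in control hearts. The integrin activation list had 2 higher and 1 lower of 6 and 1 higher and 1 lower of 6 in endothelium, and Rasgrp2, an activator of Rap1, was lower in both pairs at -1.17 and -1.20. In phagocytes 0 of 6 and 1 of 6 were called in deletion-labelled and control hearts.

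Likeness was measured as Pearson correlation of log2(CPM + 1) over 29 class and library sums of at least 50 cells, against 7305 other genes. These points share libraries and classes, so the values are a description. Sele was most like Gja4 (0.88), Mcam (0.87) and Aoc3 (0.86), and Icam2 most like Pecam1 (0.92), Fli1 (0.88) and Ppp1r13b (0.86). Vcam1 was most like Myh10 (0.96), Nid2 (0.92) and Layn (0.91), and Selp most like Nrg1 (0.81), Upp1 (0.78) and Lrg1 (0.78). The closest genes to Icam1 were Klhl6 (0.78), Il4ra (0.78) and Tmed5 (0.76), the weakest likeness beside that of Selp. Selplg and Itgal shared Arhgap9 as the closest gene (0.98 and 0.97), with Pstpip1 (0.96) and Mbp (0.96) next for Selplg and Mbp (0.97) and Hcst (0.96) next for Itgal. Itgam was most like Lilrb4a, Tyrobp and Fcer1g (all 0.96), and Itga4 most like Arhgap15, Arhgap45 and Dock2 (all 0.97).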

How the data were processed

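The files are 10x Genomics 3′ (v3.1, dual index) matrices of UMI counts per gene and barcode, 1 per library, deposited by the authors as raw counts that were not normalized. Per the submitters' processing notes they were made with Cell Ranger 5.0.1 and mm10. Doublet treatment by the authors is not given in the sources used here.

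Cells with at least 500 UMIs, 200 genes and at most 20% mitochondrial UMIs were kept. Doublets were removed by their likeness to simulated pairs, at 0.8% per 1000 barcodes. Cells were clustered jointly (2000 variable genes, 30 components, 20 neighbours, Leiden resolution 1) without the members and 53 pathway genes, and unnamed clusters were re-clustered once. Of 60 clusters 44 were named, by a marker score of at least 0.1, at least 3 markers each in 20% of cells and the top 10 genes, limits set after the data were seen. The 16 unnamed clusters held 2348 of 37003 cells. Rebuilt names can differ from the authors'.

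Counts were summed per class and library. Ratios of CPM have exact conditional 95% intervals and cover counting error only. A sum of 0 was set to 3 UMIs and its ratio is a bound. Background shares are over all genes with at least 10 UMIs in either sum. Named genes were all members, in each pathway list the 2 highest and 2 lowest ratios among genes reaching 50 CPM and 30 UMIs, and the 3 genes most like each member. The members and lists were chosen with earlier results of these data known. The ratio step was checked on simulated counts. Tools were Python 3.11.15, numpy 2.4.6, scipy 1.17.1, scikit-learn 1.9.0, igraph 0.11.9 and leidenalg 0.10.2, and figures were drawn with matplotlib 3.10.9. Alternatives are described at the end.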

Additional observations from a re-analysis of the deposited data

Results flagged for a closer look

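Endothelial Sele had opposite directions between genotypes in the 2 conditions. After infarction the log2 ratio of deletion-labelled over control hearts was 0.81, on 232 and 69 UMIs, and at baseline it was -2.60, on 11 and 38 UMIs. With 1 library a group the difference between these ratios was not tested. Of the 38 control baseline UMIs 23 came from 1 cell, and of the 232 deletion-labelled infarct UMIs 47 came from 1 cell. Clustering each library alone gave -1.10 after infarction.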

How the results depend on the processing

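No paired analysis was possible because there was 1 library in a group, which also left no replicate to leave out. Of 197 log2 ratios, those on the same side of the 1.5-fold line numbered 192 at Leiden resolution 0.5, 193 when clustered with members and pathway genes, 193 with names refused only for 2 more markers of another class, 185 with at least 1000 UMIs a cell, 182 with at most 10% mitochondrial UMIs, 185 with median of ratios scaling and 171 with no doublet removal. Clustering each library alone kept 171 of 190 and the mean of CPM per cell 166 of 191.

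Log2 ratios that changed direction were mostly of low sums. Clustering each library alone gave 2.73 for Itgal and 1.04 for Itga4 in control infarct over baseline endothelium, -1.10 for infarct endothelial Sele between genotypes, -0.95 for deletion-labelled infarct over baseline neutrophil Icam2, and -0.66 for Vcam1 and -0.68 for Sele between genotypes in infarct neutrophils. Endothelial Itgal was also 1.87 with at most 10% mitochondrial UMIs and 1.84 with the looser naming. With no doublet removal, Icam2 of infarct over baseline hearts was -0.67 in deletion-labelled and -0.28 in control phagocytes, -0.85 in deletion-labelled neutrophils and -2.32 in deletion-labelled mural cells, and between genotypes mural Icam2 was 0.0177 at baseline and mural Vcam1 0.0849 after infarction. With at least 1000 UMIs a cell the deletion-labelled mural Icam2 ratio was -0.37. The mean of CPM per cell gave -0.12 for Sele in infarct neutrophils and -0.32 for Icam2 in infarct fibroblasts between genotypes. Of the alternatives chosen after seeing the data (the looser naming, infarct clusters split from endothelial cluster 16, endothelial cluster 3, mural cluster 14, and neutrophils without cluster 25), leaving out cluster 25 gave -0.96 for deletion-labelled infarct over baseline Icam2 and -0.69 for both Vcam1 and Sele between genotypes. Mural cluster 14 alone gave Itga4 ratios of 1.46 in deletion-labelled infarct over baseline hearts and -1.04 between genotypes at baseline. Among endothelial ratios within 1.5-fold that passed it under an alternative, control infarct over baseline Icam1 ranged from 0.29 to 0.86, and between genotypes baseline Vcam1 from -1.57 to -0.14 and infarct Selp from -0.93 to 0.29. Except where an alternative's own construction shows it (fewer cells), the cause was not tested.

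Counts of members moved as follows. In control endothelium after infarction the 4 higher became 7 with each library clustered alone, and the 2 lower became 0 there and 1 under a 2-fold rule, the looser naming, Leiden 0.5, clustering with the members, at least 1000 UMIs and at most 10% mitochondrial UMIs. The 3 lower in baseline endothelium between genotypes became 1 in cluster 3 only. The 5 higher in infarct endothelium between genotypes became 3 with at least 1000 UMIs, Leiden 0.5 or clustering with the members, and the 0 lower became 1 with the mean of CPM per cell or each library alone. In phagocytes the 3 higher in deletion-labelled hearts became 1 with the mean of CPM per cell, and between genotypes after infarction the 1 higher became 0 under 2-fold and the 0 lower became 1 with no filter on low counts. In fibroblasts the 6 higher in deletion-labelled hearts became 3 with the mean of CPM per cell. Between genotypes at baseline the 0 higher became 3 with no doublet removal and 1 with at most 10% mitochondrial UMIs, and the 1 lower became 2 with each library alone and 0 under 2-fold. Between genotypes after infarction the 1 higher became 0 with the mean of CPM per cell or 2-fold, and the 2 lower became 1 with no doublet removal and 0 under 2-fold. Sele was higher in mural cells than in endothelium in all 4 libraries under each of 7 other clusterings or cell filters.

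Depth limits the baseline selectins in endothelium and the 5 ligands in the 107 baseline neutrophils of the deletion-labelled library, where each had at most 9 UMIs.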

Other observations

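Unnamed clusters whose best marker score was endothelial held 116 cells of the deletion-labelled infarct library (1.23% of its cells), 73 of the control infarct library (0.799%), 1074 of the deletion-labelled baseline library (10.6%) and 482 of the control baseline library (5.81%). They are in none of the endothelial values above.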
